A study of Mus musculus with 2 samples.

Results

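Myeloid cells with few or no transcripts of Lyve1 and Folr2 were described in the aorta of wild-type mice and of knock-in mice with a mutated matrix Gla protein (MGP). A barcode counted as a cell when it held at least 1000 UMIs (unique molecular identifiers, 1 per captured RNA molecule), at least 500 genes and at most 10% mitochondrial UMIs. It was a member when it also held at least 20 UMIs of C1qa, C1qb, C1qc and Lyz2 together and at most 2 UMIs of Lyve1 and Folr2 together. This gave 78 of 10116 cells, 48 from the wild-type library (3697 cells) and 30 from the knock-in library (6419 cells). C1qa, C1qb and C1qc encode the chains of complement C1q, Lyz2 encodes lysozyme, Lyve1 is a hyaluronan receptor and Folr2 a folate receptor. These values chose the cells, so the members were selected on the 6 genes, which are described and carry no comparison of their own.

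The study asks how a mutation of MGP, a secreted inhibitor of calcification that binds bone morphogenetic proteins (BMPs), bears on how BMPs steer the differentiation of cells in the aortic media. Per the labels, the aortas came from 1-month-old male and female mice of each genotype, the adventitia was dissected away, the tissue was digested with Liberase, and cells stained by DAPI were sorted out as dead. The wild-type group carried no named allele and the knock-in group carried the MGP knock-in, and both libraries have the same batch label. Each genotype is 1 library, so no difference between genotypes has a replicate check and no test was made. The mutated residue and the number of mice pooled per library are not given in the sources used here.

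Arteries hold several kinds of macrophages. Resident macrophages with LYVE1 and FOLR2 on their surface lie mainly around the outer wall and clear debris and matrix. Macrophages and dendritic cells with low LYVE1 display peptides on MHC class II molecules, and many of them are replenished from blood monocytes, which enter tissue through the chemokine receptor CCR2.

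The members fell into groups with high and with low MHC class II transcripts, so the upstream windows of these genes are shown first. In the 150 bases before the transcription start, 3 of the 4 MHC class II genes of the list that were searched hold the letters TGATTGG. Cd74, H2-Ab1 and Ciita were not searched here. This is the core of the Y box, a conserved element of MHC class II promoters. The letters (or CCAATCA, the same on the other strand, with no overlap with another motif searched) occur in 5.71% of all 32851 windows of this length in the table. The 2 windows of H2-DMa, which encodes a chain of the peptide-loading chaperone, do not hold them. The windows are from RefSeq on GRCm38.p6, each written 5′ to 3′ on the strand of the gene, with the Y box in capitals. They lie at chr17:34287824-34287973 on the minus strand for H2-Aa, at chr17:34305717-34305866 on the plus strand for H2-Eb1 and at chr17:34153041-34153190 on the plus strand for H2-DMb1. All are upstream of the gene's first exon, and the motif begins 50, 61 and 63 bases before the start.
H2-Aa: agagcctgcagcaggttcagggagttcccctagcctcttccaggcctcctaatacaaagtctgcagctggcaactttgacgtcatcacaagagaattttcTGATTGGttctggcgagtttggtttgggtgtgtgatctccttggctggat
H2-Eb1: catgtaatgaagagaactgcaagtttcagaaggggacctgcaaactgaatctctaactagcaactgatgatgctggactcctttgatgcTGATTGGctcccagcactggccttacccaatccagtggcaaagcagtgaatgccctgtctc
H2-DMb1: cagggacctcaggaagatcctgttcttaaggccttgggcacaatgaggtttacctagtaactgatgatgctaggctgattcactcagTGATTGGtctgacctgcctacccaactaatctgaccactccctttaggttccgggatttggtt
A match is a description of the letters and not evidence of binding.

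The libraries held 79626104 and 85831737 UMIs, with medians of 20480 and 11820 per cell. Members held 797762 UMIs in the wild-type library and 542395 in the other. Their median depth was 15414.5 and 15806 UMIs, with ranges of 2034 to 39035 and 1974 to 48394. Of the 48 and 30 members, 23 and 12 carried female, 19 and 10 male, 3 and 4 both and 3 and 4 neither of the sex-linked transcripts. The libraries shared 4 cell barcodes. Levels below are CPM, the UMIs of a gene per 1000000 UMIs summed over the cells in question. Ranges in square brackets are 95% intervals that cover counting error only.

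Their share was 1.30% [0.959 to 1.72] of all wild-type cells and 0.467% [0.316 to 0.667] among knock-in cells. Among all cells that met the myeloid limit, whatever their Lyve1 and Folr2, they made up 13.3% [9.94 to 17.2] of 362 and 9.17% [6.28 to 12.8] of 327. The first pair of intervals did not overlap and the second did. The share of all cells moves with how many vessel wall cells each digest released, and its part in the first difference was not tested.

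Of the 78 members, 63 held no UMI of Lyve1 or Folr2. The UMIs of C1q and Lyz2 that chose them ran from 20 through a median of 177.5 to 748 in the wild-type library and from 26 through 133.5 to 708 in the knock-in library. Just inside that limit, with 20 to 24 UMIs, lay 1 wild-type and 0 knock-in cells, and just outside it, with 15 to 19, lay 4 and 2. With 2 UMIs of Lyve1 and Folr2 there were 2 cells in each library, and with 3 to 5 there were 7 and 11 cells that the rule put among the Lyve1 Folr2 high macrophages. Those 314 wild-type and 297 knock-in cells had a median of 33 and 23 UMIs of the 2 genes.

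The label of these cells names macrophages and monocytes, and the markers bore out a myeloid identity, while single markers of monocytes and dendritic cells gave a mixed picture. Ptprc, the leukocyte surface phosphatase CD45, was detected in 46 of 48 and 29 of 30 members. Ly6c2, the antigen that marks classical monocytes, was detected in 1 member, and Treml4, a marker of patrolling monocytes, in 0 of 78. That count allows up to 3.85% of cells with a UMI and sets no limit on cells that express the gene. The other 6 of the 7 non-classical monocyte markers were detected, and 44 of 48 and 29 of 30 members held at least 1 of them. A large part of that list was held by only 1 of 48 and 2 of 30 members. Among the 7 markers of dendritic cells of type 2 the receptor Flt3 was at 0, and the other 6 were detected, with at least 1 of them in 42 and 27 members. Only 3 and 5 members held a large part of this list. The neutrophil genes S100a8 and S100a9 were at 0 in all members. Of the 10 classical monocyte markers 1 was at 0, and Chil3, like Ly6c2, came from 1 cell. The summed level of this list ran from 0 to 10367 CPM in wild-type and from 0 to 7366 CPM in knock-in members, and it holds Fn1, a matrix gene that fibroblasts also express. Of 8 measured genes of this list 0 were higher and 5 lower in knock-in than in wild-type members, with a median log2 ratio of -2.30, and over the members with few vessel wall transcripts 0 and 5 of 7, with -2.24. That median turned to 0.19 without 6 cells described below. The cells are called Lyve1 Folr2 low myeloid cells below, after the rule that chose them.

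Lyz2 was detected in all members. Its level ran from 51.2 through a median of 6667 to 21037 CPM over wild-type members and from 48.8 through 4469 to 56630 CPM over knock-in members. Cd74, the invariant chain that escorts MHC class II molecules, ran from 0 through 10949 to 30267 CPM in wild-type cells and from 0 through 10920 to 28696 CPM in knock-in cells. The ranges overlapped almost completely, and each library held cells with none and cells with very high levels.

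Ccr2, the receptor through which monocytes enter tissue, ran from 0 through 554 to 2369 CPM and from 0 through 467 to 1969 CPM. After thinning each member to 2000 UMIs, 50% [35.2 to 64.8] of 48 wild-type and 51.7% [32.5 to 70.6] of 29 knock-in members held a Ccr2 UMI, with 1 shallower knock-in member left out. Without thinning the shares were 60.4% and 60%. Among the remaining cells of the libraries, thinned in the same way, 0.219% and 0.0372% did, where the median depth before thinning was 21154 and 11813.5 UMIs. Cd74 was found in 79.2% and 79.3% of thinned members against 1.93% and 0.747% of the remaining cells. Near-empty barcodes with at most 100 UMIs, which show the free RNA, held 431.5 and 310.6 CPM of Cd74, far below the median member.

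Clustering the 78 members gave 3 groups. Group 1 held 40 cells, 27 wild-type and 13 knock-in, and combined high MHC class II transcripts with little C1q. Group 2 held 27 cells, 17 and 10, and combined high C1q with little MHC class II in most cells. Group 3 held 11 cells, 4 and 7, and carried many transcripts of vessel wall cells beside the myeloid ones. The groups were made from these transcripts, so the levels below describe them and are no test.

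**Figure D1:**
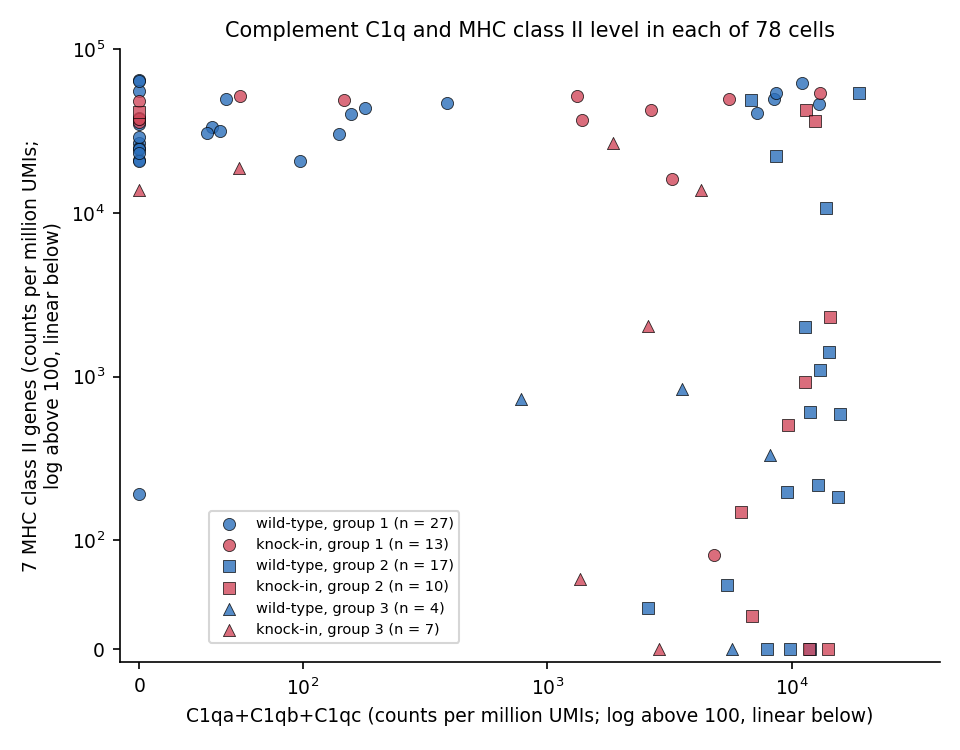
Each point is 1 of the 78 cells. The x axis gives the summed C1q level and the y axis the summed level of 7 MHC class II genes, both in CPM on an axis that is logarithmic above 100 and linear below. Color gives the library and shape the group. The 40 cells of group 1 lie along the top, except 2, and the cells of group 2 lie at the right, except 1.

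In group 1 the 7 MHC class II genes together had a median of 37740 CPM and the C1q genes of 51.4 CPM. At least 10000 CPM of MHC class II was found in 38 of 40 cells, and 17 of 40 cells held no C1q UMI, so they were chosen through Lyz2 alone. Ccr2 was detected in 38 and Retnla in 35 of the 40 cells. Retnla encodes RELM alpha, a secreted protein of alternatively activated macrophages. In group 2 the MHC class II median was 587 CPM and the C1q median 11416 CPM, and 26 of 27 cells held at least 1000 CPM of C1q. Ccr2 was detected in 6 of these 27 cells, and MHC class II reached 10000 CPM in 7. C1q level was also high in 12 of the 40 cells of group 1, so the groups overlap in C1q but seldom in Ccr2. These 12 include all 5 cells of group 1 that were marked as doublets, wild-type cells 24, 26, 30 and 39 and knock-in cell 22. Group 1 cells were deeper, with a median of 19441 UMIs against 10268.

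All 7 MHC class II genes were higher in group 1. Cd74 stood at 15949 CPM in group 1 and 4661 CPM in group 2 and was detected in 38 of 40 and 20 of 27 cells. H2-Aa and H2-Ab1, the alpha and beta chains of the I-A molecule, stood at 5877 against 1760 CPM and at 6582 against 1537 CPM. H2-Eb1, the beta chain of I-E, stood at 5493 against 1434 CPM. The 3 genes with a Y box in the windows above thus include H2-Aa and H2-Eb1, detected in 38 of 40 cells each against 8 and 10 of 27, and H2-DMb1, detected in 39 against 12. H2-DMa, whose windows lack those letters, was likewise higher, at 1025 against 155 CPM. Ciita, the transactivator that switches on this gene family, stood at 130 against 20.5 CPM and was detected in 33 of 40 and 4 of 27 cells. The log2 ratios of group 1 over group 2 ran from 1.74 for H2-Aa to 2.72 for H2-DMa.

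Several other genes were shared by most cells of group 1. Retnla stood at 15828 CPM in group 1 and at 590 CPM in the other members. Its spread was extreme: over group 1 it ran from 0 through a median of 3341 to 100142 CPM in wild-type cells and from 0 through 9105 to 69920 CPM in knock-in cells. Ccl6, a CC chemokine, was detected in 40 of 40 cells of group 1 against 18 of 38 others. Ear2, an eosinophil-associated ribonuclease, was detected in 32 against 3, Malt1, a protease of NF-kB signalling, in 36 against 13, and Cd226, an adhesion receptor, in 32 against 3. Lyz1, the second lysozyme gene, was detected in 26 of 40 against 4 of 38 cells. Lyz1 and Lyz2 are near-identical copies whose reads could be exchanged, so these 2 values are uncertain. These genes were chosen after their values were seen.

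By fold over the other members, the 10 leading genes of group 1 were Chil3, Ereg, Kcnip4, Sntg1, Lyz1, Fabp1, Vdr, Cd209d, Flrt3 and Dcstamp. Many of them came from a few cells. Chil3 and Fabp1 each came from 1 cell and Ereg, an epidermal growth factor family ligand, from 4. Vdr, the vitamin D receptor, was detected in 13 cells, Cd209d, a C-type lectin, in 11, and Dcstamp, a membrane protein needed for fusion of osteoclasts and dendritic cells, in 17 of 40.

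Several genes known from tissue macrophages were shared by most cells of group 2. Ms4a7, a membrane protein of mature macrophages, was detected in 20 of 27 cells against 5 of the 51 others, and stood at 411 against 9.01 CPM. Trem2, a lipid-sensing receptor, was detected in 21 against 6, and Hpgd, which degrades prostaglandins, in 22 against 8. Gpr183, a receptor for oxysterols, was detected in 18 against 7. These genes were not particular to group 2, since the Lyve1 Folr2 high macrophages of both libraries held them too. Ms4a7 stood there at 423 and 446 CPM and Hpgd at 296 and 291 CPM, against 302 CPM of Hpgd in group 2. Trem2 stood at 113 and 141 against 223 CPM and Gpr183 at 93.2 and 142 against 199 CPM. Cx3cr1, the fractalkine receptor, was detected in group 2 in 13 of 17 cells from wild-type mice and 6 of 10 from knock-in mice, and in group 1 in 9 of 27 and 4 of 13. Apoe, the apolipoprotein that carries lipid out of macrophages, ran over group 2 from 74.6 through 1883 to 25808 CPM in the wild-type and from 61.4 through 3125 to 23903 CPM in the knock-in library. In group 1 its median was 38.6 and 53.0 CPM, so most cells of the groups were separated in Apoe although their ranges overlapped.

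The 10 leading genes of group 2 by fold were Mcpt4, Tpsb2, Cpa3, Cma1, Kit, Ch25h, Ms4a7, Spp1, Prc1 and Gdf15. The first 5 are mast cell genes and came from 1 cell. Ch25h, which makes an oxysterol, and Gdf15, a stress-induced cytokine, came from 5 cells each, Spp1, the secreted protein osteopontin, from 9, and Prc1, which bundles spindle microtubules, from 3. Mki67, a marker of cycling cells, was detected in 6 of 27 cells of group 2 and 5 of 40 of group 1.

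Among the 10 leading genes of group 3 by fold were Cytl1, Clu, C7, Col4a4, Tm4sf1, Epha3, Piezo2, Tmtc1 and Bmp4. Tm4sf1, a membrane protein of vascular cells, was detected in 11 of 11 cells against 2 of the 67 others. Markers of fibroblasts, smooth muscle cells and endothelial cells made up a median of 4.69% of UMIs in group 3, with a range of 0.875 to 6.49%, against a median of 0.0607% in group 1 and 0.0617% in group 2. Of its 11 cells, 9 were among the highest doublet scores of their library, against 5 of 40 and 1 of 27 in the other groups. Myeloid and vessel wall transcripts thus occurred under the same barcodes, and no cell type name is given to this group. Knock-in cell 18 of this group also held 7 UMIs of Trac, a T cell receptor gene.

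**Figure D2:**
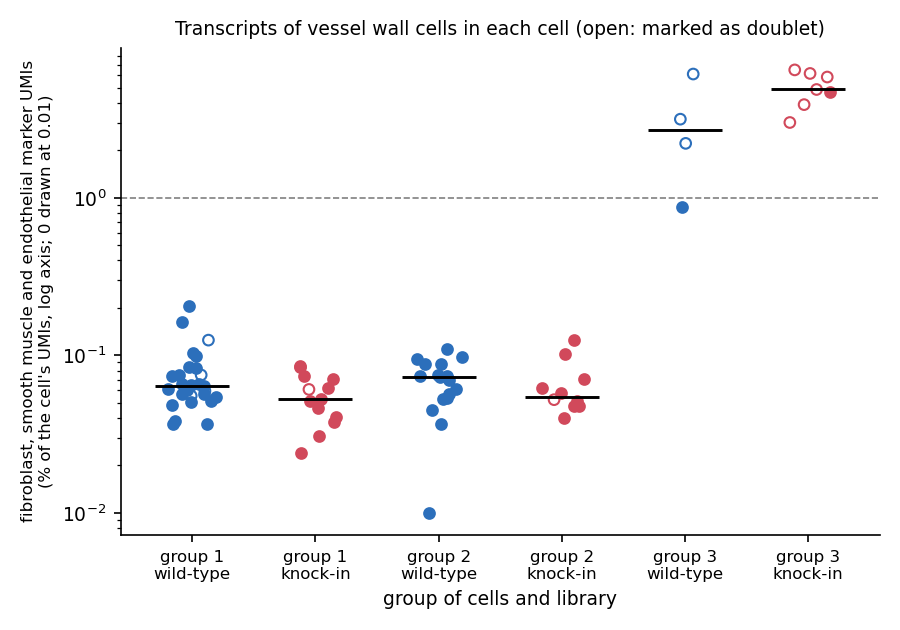
Each point is 1 cell and the y axis, on a log scale with 0 drawn at 0.01, gives the share of its UMIs from fibroblast, smooth muscle and endothelial markers. Bars are medians and open points were marked as doublets. Groups 1 and 2 reach at most 0.205% and 10 of the 11 cells of group 3 lie above the dashed line at 1%.

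More than 1% of these markers was found in 10 members, 3 wild-type and 7 knock-in, all in group 3. Values over the 68 members at or below 1%, 45 wild-type and 23 knock-in, are therefore given beside most comparisons of genotypes. Leaving out all 15 marked doublets (7 wild-type and 8 knock-in) is among the alternatives in the closing section.

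Some members carried programs of their own in single cells, which were picked out after their values were seen. Wild-type cell 41 held all 160 UMIs of Chil3, all 47 of Fabp1, all 26 of Plet1 and all 12 of Marco in the members, genes known from lung alveolar macrophages, with 0 UMIs of Cd74 and Ccr2. Knock-in cell 22 held 133 of 135 UMIs of Prg4, 53 of 54 of Saa3, 16 of 17 of Alox15 and 8 of 9 of Vsig4, genes known from macrophages of the serous cavities, with 653 UMIs of Lyz2 and 0 of Cd74, and it was marked as a doublet. These are the 2 cells of group 1 without high MHC class II, at 192 and 86.7 CPM.

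Wild-type cell 18 held all 11 UMIs of Ly6c2, 36 of 40 of Plac8 and 12 of 20 of Ms4a4c, which are genes of classical monocytes, together with 285 UMIs of Cd74. It was the only member with this set of monocyte transcripts. Knock-in cell 15 held all 6 UMIs of Xcr1 and 7 of 8 of Clec9a, receptors of cross-presenting dendritic cells, with 445 UMIs of Cd74, 39 of Mki67 and no C1q. Knock-in cell 10 held all 216 UMIs of Mcpt4 and all 121 of Cpa3 and was marked as a doublet. Knock-in cell 6 held all 1976 UMIs of the hemoglobin gene Hbb-bs beside 91 UMIs of C1qa. These 6 cells decide several of the genotype values below, and an alternative added after seeing the data leaves them out.

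The comparison with the Lyve1 Folr2 high macrophages of the same libraries is a description, since the rule split both sets on these transcriptomes. Over 7695 genes with at least 50 UMIs over both sets in each library, 223 (2.90%) were at least 2-fold higher in the members in both libraries and 511 (6.64%) at least 2-fold lower. Summed over all members, Cd74 and Ccr2 were on the side of the members. Cd74 stood at 11012 and 10688 CPM in wild-type and knock-in members and at 1812 and 2393 CPM in the high set, and Ccr2 at 547 and 577 against 45.6 and 40.5 CPM. Group 1 gave most of this. In group 2 Ccr2 stood at 43.7 and 200 CPM, the latter from 3 cells. Cd74 stood at 4148 and 5445 CPM there, with medians per cell of 108 and 539 CPM.

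Ear2 led the genes higher in the members, with 322 and 273 CPM against 4.87 and 0.522 CPM. Its log2 ratio was 6.05 [5.45 to 6.70] in the wild-type and 9.03 [7.15 to 12.09] in the knock-in library, where the high set held few UMIs. Napsa, an aspartic protease, differed by 5.82 and 7.46, Cytip, a regulator of leukocyte adhesion, by 5.48 and 5.99, and Rab11fip1, a Rab effector of recycling endosomes, by 5.47 and 5.91 on the log2 scale. Cd24a, a leukocyte surface glycoprotein, differed by 5.34 and 6.99 and Cd226 by 4.92 and 7.20. Ltb4r1, the receptor for leukotriene B4, differed by 5.27 in the wild-type library and was at least 137-fold higher in the knock-in library, where the high set held 0 UMIs and the floor of 3 counts was used. Il1b, which encodes interleukin 1 beta, differed by 4.32 and 5.64, and Adam8, a membrane metalloprotease, by 4.53 and 4.91. Malt1 differed by 3.75 and 4.16 and Lyz1 by 4.44 and 5.70. Several of these genes were near 0 in group 2, with Ear2 at 0 CPM in both libraries, Cd226 at 0 and 22.3 and Lyz1 at 0 and 7.42 CPM. Others were not, with Cytip at 209 and 200 and Il1b at 801 and 215 CPM in that group. Fn1, fibronectin, differed by 3.54 and 4.85. It stood at 3347 CPM in group 1, where the median share of vessel wall markers was 0.0607%, against 38.1 CPM in group 2 and 1025 and 1142 CPM in the remaining cells.

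On the other side stood genes of resident perivascular macrophages. Beside Lyve1 and Folr2 themselves, the lowest were Ccl8, Ednrb, Cd209f, Cbr2, Cd209g, Cd163, Selenop, Chp2, Plekhg5 and Fcna. Ccl8, a chemokine for monocytes and T cells, stood at 2.51 CPM in wild-type members against 608 CPM, a log2 ratio of -7.92 [-10.97 to -6.07], and at 0 UMIs in knock-in members, at least 195-fold below the high set. Ednrb, an endothelin receptor, stood at 10.0 and 16.6 against 836 and 717 CPM. The haptoglobin-hemoglobin scavenger receptor Cd163 stood at 62.7 and 66.4 against 793 and 770 CPM, and the selenium carrier Selenop at 377 and 365 against 3283 and 4175 CPM. Cd209f and Cd209g, lectins of the DC-SIGN family, were found in 2 and 0 members.

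**Figure D3:**
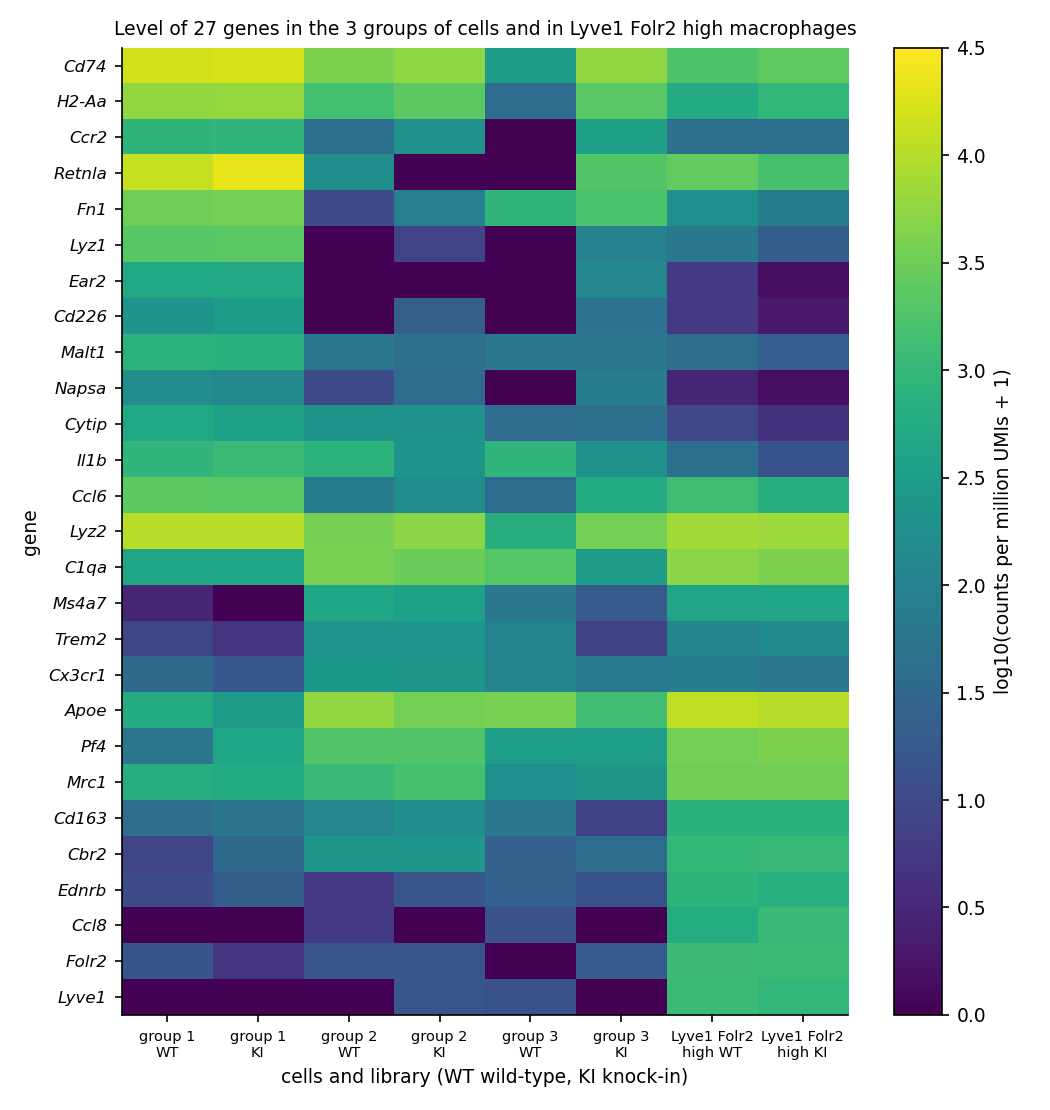
Rows are 27 genes and columns the 3 groups and the Lyve1 Folr2 high macrophages in each library (WT wild-type, KI knock-in). Color gives log10 of CPM plus 1. Cd74, Ccr2, Retnla and Ear2 are highest in group 1, Ms4a7 is high in group 2 and in the high macrophages, and Cbr2, Ednrb, Ccl8, Folr2 and Lyve1 are highest in the high macrophages. Group 3 rests on 4 wild-type and 7 knock-in cells.

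Between genotypes, UMIs were summed over the members of each library. Of 4124 genes with at least 50 UMIs, 173 (4.19%) were at least 2-fold higher in the knock-in library and 162 (3.93%) at least 2-fold lower, and the median log2 ratio of knock-in over wild-type was -0.07. Among the 68 cells with few vessel wall transcripts, 71 of 3501 genes (2.03%) were 2-fold higher and 151 (4.31%) lower. Only 35 of the higher genes but 100 of the lower ones were called in both sets of cells. For gene lists, a member gene was counted when it was at least 1.5-fold apart with at least 10 UMIs. By this rule 18.2% of 9122 genes were higher and 16.8% lower over all members, and 15.8% and 19.0% of 8193 genes over the 68 cells. With so few cells a 1.5-fold difference is common, and list counts near these shares are no result about the list.

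Summed over all members, the 7 MHC class II genes differed little. None was 1.5-fold apart in either direction, over all members or over the 68 cells, and the median log2 ratio of the list was -0.04 and 0.09. Cd74 had a log2 ratio of -0.04 [-0.09 to 0.00], H2-Aa of -0.02 [-0.10 to 0.06], H2-Eb1 of 0.03 [-0.05 to 0.11] and H2-Ab1 of 0.11 [0.04 to 0.19]. Within group 1 the median was 0.06. Within group 2, where these genes are low in most cells, 5 of 6 measured genes were higher in the knock-in library and 0 lower, with a median of 0.84. The list summed to 8025 CPM over the 17 wild-type and 12314 CPM over the 10 knock-in cells of that group. Knock-in cell 15, described above, is 1 of these cells and held 41579 CPM of the list. It held 445 of the 734 knock-in Cd74 UMIs of group 2, so this difference rests largely on it. The median cell of the group held 587 CPM in the wild-type and 718 CPM in the knock-in library. In the Lyve1 Folr2 high macrophages 1 of 7 was higher and 0 lower, with a median of 0.49. Ccr2 differed by 0.08 [-0.14 to 0.29]. Of the 8 MHC class I presentation genes, 0 were higher and 1 lower, over all members and over the 68 cells. Tap1, a chain of the peptide transporter, was the lower one, with 45 against 9 UMIs and a log2 ratio of -1.77 [-2.98 to -0.71], and -1.91 over the 68 cells.

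Most measured interferon-stimulated genes were lower in the knock-in members. Of 7 genes 0 were higher and 5 lower, with a list median of -1.24, against a median of 0.0016 over all genes, and over the 68 cells again 0 and 5 with -1.30. The summed level of the list differed little, at 1089 and 997 CPM over all members and 1061 and 1047 CPM over the 68 cells. It was 1156 and 1337 CPM in group 1 and 723 and 512 CPM in group 2. Isg15, a ubiquitin-like modifier, ran from 0 to 1352 CPM in 48 wild-type and from 0 to 438 CPM in 30 knock-in members, with medians of 0. It was detected in 18 and 6 cells, and its log2 ratio was -1.21 [-2.01 to -0.47]. The ranges overlapped, most cells held none, and every value above 438 CPM was in a wild-type cell.

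The other interferon genes were uneven. Bst2, the antiviral protein tetherin, had a ratio of -1.26 [-1.82 to -0.72] over all members and of 0.03 within group 1, whereas Ifitm3, a membrane protein that blocks virus entry and that stromal cells also express, had 0.19. Of the 130 wild-type UMIs of Bst2, 35 lay in 1 cell of group 3. Isg15 had a ratio of 0.41 after thinning to 2000 UMIs, so its direction did not hold at that depth. Cxcl10, an interferon-induced chemokine on the inflammatory list, had 256 against 78 UMIs and a ratio of -1.16 [-1.54 to -0.79], with -1.18 over the 68 cells.

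Inflammatory cytokines and NF-kB feedback genes were split, with 3 higher and 3 lower of 13, and 3 and 1 over the 68 cells. Tnf, the cytokine TNF, had a ratio of -0.68 [-0.99 to -0.37], and -0.45 over the 68 cells. Cxcl1, a neutrophil chemokine, had 0.73 [0.40 to 1.05], and 0.81 over the 68 cells. Cxcl1 turned to -1.25 among female cells and to -0.14 without marked doublets, against 2.78 among male cells. Cxcl2, a related chemokine, had -0.20 over all members, 0.26 over the 68 cells and 0.95 within group 1. Nfkbia, the NF-kB inhibitor, had -0.02. Of 10 chemokine ligands 2 were higher and 1 lower, and over the 68 cells 3 and 0 of 9. Ccl24, an eosinophil chemokine, had 15 UMIs over 10 wild-type cells and 62 UMIs over 10 knock-in cells, of which 30 lay in cell 22, and a ratio of 2.60 [1.77 to 3.52]. Over the 68 cells Ccl24 had 2.88. Ccl12, a ligand of CCR2, had 0.80 [0.44 to 1.17], and 1.29 over the 68 cells, but -0.40 among female and 4.29 among male cells. Ccl2, the main ligand of CCR2 known from monocyte recruitment, had -0.01, and 0.31 over the 68 cells.

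Of 8 chemoattractant receptors, 0 were higher and 3 lower, and over the 68 cells 1 and 2. Ccr1, a receptor of inflammatory chemokines, had a ratio of -1.01 [-1.79 to -0.27], Cxcr4, the receptor of CXCL12, of -1.05 [-1.88 to -0.28] and Ccrl2, an atypical receptor that binds chemerin, of -0.90 [-1.25 to -0.56]. Over the 68 cells Ccr1 had -0.93, Cxcr4 -0.76 and Ccrl2 -0.53. Cx3cr1 had -0.17 [-0.73 to 0.37]. The direction of Cxcr4 turned to 0.21 among female cells.

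Alternative activation genes had a list median of 0.35, with 2 higher and 1 lower of 7, and over the 68 cells a median of 0.52, with 3 and 1. Retnla stood at 8277 and 10542 CPM, a ratio of 0.35 [0.30 to 0.40], 0.65 over the 68 cells and 0.75 within group 1. Without marked doublets the ratio was 2.17, so its size depended strongly on them. Wild-type cells 24, 26, 30 and 39, all marked as doublets, held 244, 1284, 1641 and 1268 of the 6603 wild-type UMIs of Retnla. Its range over single cells was 0 to 100142 CPM, far wider than the difference of the sums, and the highest value was in cell 39. Mgl2, a galactose-type lectin, had 0.43 [0.16 to 0.69] and Mrc1, the mannose receptor, -0.01. Over the 68 cells Mgl2 had 0.52 and Mrc1 0.23. Clec10a, the paralog of Mgl2, had -1.06 [-1.97 to -0.22], and -1.07 over the 68 cells, and reads can be shared between the pair.

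Among receptors for debris and immune complexes more genes were lower than higher in the knock-in library. Of 11 scavenging and efferocytosis receptors 1 was higher and 6 lower, with a median of -0.62, and over the 68 cells 2 and 4 with -0.29. Itgb5, an integrin that bridges to apoptotic cells, had -0.91 [-1.63 to -0.23] and the scavenger receptor Cd36 had -0.43 [-0.77 to -0.10], with -1.84 and -0.16 over the 68 cells. Among 10 Fc receptor and ITAM signalling genes 0 were higher and 3 lower, with a median of -0.23, and over the 68 cells 1 and 3 with 0.03. Fcgr1, the high-affinity IgG receptor, had 41 UMIs in 20 cells against 9 in 5 cells, a ratio of -1.63 [-2.86 to -0.57] that turned to 0.14 after thinning and was -1.31 over the 68 cells. Its adaptors Fcer1g and Tyrobp were found in nearly all members and had -0.22 and -0.30, and 0.0 and -0.07 over the 68 cells.

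In the iron and lipid lists, too, the median ratio was below 0. Of 8 iron handling genes 0 were higher and 4 lower, with a median of -0.58, and over the 68 cells 1 was higher and 2 lower of 7, with -0.55. The ferritin heavy chain Fth1 ran from 296 through 4268 to 20921 CPM in wild-type cells and from 1846 through 4302 to 8874 CPM in knock-in cells. Its ratio of sums was -0.51 [-0.59 to -0.43], while the medians of the cells were almost equal and the range over wild-type cells was wider at both ends. The light chain Ftl1 had -0.65 [-0.74 to -0.57], and over the 68 cells Fth1 had -0.57 and Ftl1 -0.53. Of 11 lipid handling genes 1 was higher and 4 lower, and over the 68 cells 0 and 4 of 10, with medians of -0.43 and -0.32. Apoe had -0.73 [-0.85 to -0.61] and Abcg1, a cholesterol exporter, had 67 against 19 UMIs and -1.26 [-2.08 to -0.51], with -0.63 and -1.39 over the 68 cells. The direction for Apoe did not hold in both sexes, with a ratio of 1.51 among female and of -2.76 among male cells. Of 18 lysosomal genes 2 were higher and 4 lower, and over the 68 cells 0 and 2. Ctss, a protease that trims the invariant chain, had -0.76 [-0.95 to -0.57], and -0.54 over the 68 cells.

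BMP and TGF-beta signalling, the pathway in which MGP acts, gave 3 higher and 5 lower of 14 genes over all members and 0 higher and 6 lower of 12 over the 68 cells. Id3, a target of BMP signalling, had 93 and 215 UMIs and a ratio of 1.77 [1.41 to 2.13], but -0.31 over the 68 cells. The remaining cells held 1100 and 1058 CPM of Id3, against 117 and 396 CPM in the members. Id2, another target, had -0.19 [-0.50 to 0.11]. Tgfb1, the ligand TGF beta 1, ran from 0 through 208 to 751 CPM in wild-type cells and from 0 through 131 to 423 CPM in knock-in cells. Its ratio was -0.89 [-1.30 to -0.51], and -0.83 over the 68 cells. The ranges overlapped, and both the median and the highest value were lower in the knock-in library. Tgfbr1, a receptor of TGF beta, had -1.04 [-1.55 to -0.55] and -0.55 over the 68 cells. Bmp2, a BMP ligand, had 39 UMIs in 7 wild-type cells, 14 of them in 1 cell, against 1 UMI in the knock-in library, a ratio of -4.73 [-10.07 to -2.17], and -4.20 over the 68 cells.

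Sums of vessel wall markers differed between the libraries, fibroblast and smooth muscle markers in one direction and endothelial markers in the other. All 8 fibroblast markers were higher in the knock-in members, with a median of 1.71, but over the 68 cells 0 were higher and 4 of 7 lower with a median of -0.80. All 6 smooth muscle markers were higher, with a median of 4.33, and 4 of 4 remained so over the 68 cells with 1.43. In the Lyve1 Folr2 high macrophages 6 of 6 were higher too, with 2.80 and sums of 375.5 and 2796 CPM. Of the fibroblast markers 7 of 8 were lower there, with -0.93. All 4 measured endothelial markers were lower in the knock-in members, with a median of -2.31 and sums of 161.7 and 24.0 CPM. The highest wild-type member held 5780 CPM of this list and the highest knock-in member 106 CPM. Sums were 17.7 and 20.1 CPM in group 1 and 19.4 and 14.8 CPM in group 2, too few UMIs to measure any gene. Over the 68 cells 4 of 4 were again lower, with -2.67. Those cells still include wild-type cell 4 of group 3, at 0.875% vessel wall markers, so they give no separate check. The summed smooth muscle level per cell ran from 0 to 573 CPM in wild-type and from 0 to 24886 CPM in knock-in members. Of the 173 genes that were 2-fold higher, 68 stood at less than 1/3 of their level in the remaining cells of the library. The part of vessel wall RNA in each single gene was not tested.

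Of the 24 genes named by their interval between genotypes, 11 had over 90% of their UMIs in 1 cell. Among the higher genes these were Mcpt4, Cma1, Tpsb2, Cpa3, Prg4 and Saa3, from cells 10 and 22. The mast cell protease Mcpt4 was at least 106-fold higher by this sum although 1 cell held it. Among the lower genes they were Chil3 from cell 41 and Cytl1, Col8a1, Angptl1 and C7 from cells of group 3. Tnfaip6, Sfrp2 and Lsamp, which were higher, had over 90% of their UMIs in group 3. The single-cell origin of these values leaves fewer genes that differed over several cells.

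Ccl17, a ligand of CCR4 made by dendritic cells and macrophages, was one of them. It had 0 UMIs in the 48 wild-type members and 86 in 4 knock-in members, with 45, 33, 6 and 2 UMIs in each, and was at least 42.2-fold higher. The Lyve1 Folr2 high macrophages held none in either library. Hist1h2ap is a replication-dependent histone gene whose reads can be shared with its copies. It had 21 UMIs over 3 wild-type cells, 18 of them in 1 cell. Over 11 knock-in cells it had 201 UMIs, 134 of them in cell 15 and 46 in 1 other cell. Outside the members it also differed, with 43.8 and 199 CPM in the remaining cells. Its ratio was 3.82 [3.16 to 4.54], and 2.39 without the 6 cells described above. Cd209a, a lectin of the DC-SIGN family found on monocyte-derived dendritic cells, was on the list of dendritic cell 2 markers. It had 23 UMIs in 4 cells of the wild-type library, 19 of them in 1 cell. In the knock-in library it had 54 UMIs in 7 cells, at most 17 in 1 cell, a ratio of 1.79 [1.06 to 2.56].

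Dbp, a transcription factor driven by the circadian clock, had 3 UMIs in 3 wild-type and 54 in 13 knock-in members, a ratio of 4.73 [3.10 to 7.05]. Group 3 held 85.2% of the knock-in UMIs, and the ratio was 2.35 over the 68 cells and 0.44 within group 1. Dbp also differed outside the members, with 12.9 and 112 CPM in the Lyve1 Folr2 high macrophages and 24.6 and 298 CPM in the remaining cells. Nr1d1, the clock repressor REV-ERB alpha, had 2.78 [1.72 to 4.0] and 1.30 over the 68 cells. Of 12 clock repressors and outputs 7 were higher and 0 lower, and over the 68 cells 4 and 0 of 7. The time of day at collection is not given in the sources used here, and its part was not tested.

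Lower in the knock-in members over several cells were Dhx40, Dcstamp, Mmp12, Negr1, Kcnip4, Sntg1 and Ereg. Dhx40, an RNA helicase, ran from 0 through 108 to 3440 CPM in the wild-type and from 0 through 30.2 to 506 CPM in the knock-in library, and was detected in 33 of 48 and 15 of 30 cells. The libraries overlapped at the low end, and every value above 506 CPM was in a wild-type cell. Its ratio was -2.15 [-2.54 to -1.77], -1.97 over the 68 cells and -1.91 within group 1. The Lyve1 Folr2 high macrophages differed in the same direction, with 350 and 162 CPM.

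Dcstamp had 151 UMIs in 14 wild-type cells, at most 32 in 1 cell, and 9 in 5 knock-in cells, at most 4. Its ratio was -3.51 [-4.67 to -2.55], and -3.31 over the 68 cells. Mmp12, macrophage elastase, which cleaves elastin, had 73 UMIs in 8 and 4 in 2 cells, a ratio of -3.63 [-5.55 to -2.22], and -4.26 over the 68 cells. Both genes were almost absent from the Lyve1 Folr2 high macrophages, at 3.12 and 0 CPM for Dcstamp and 3.31 and 0 CPM for Mmp12. Dcstamp was on the osteoclast list, of which 2 were higher and 2 lower of 5, with a median of 0.018. Over the 68 cells 0 were higher and 2 lower of 4, with -1.63. No other member of that list was named by its interval.

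Negr1, a neuronal adhesion molecule, had 79 UMIs in 12 and 7 in 3 cells, a ratio of -2.94 [-4.30 to -1.83], and -4.37 over the 68 cells. Kcnip4, a potassium channel-interacting protein, had 193 UMIs in 7 wild-type cells, 85 of them in cell 41, against 3 UMIs in 2 knock-in cells, a ratio of -5.45 [-7.74 to -3.88]. Sntg1, a syntrophin, had 54 UMIs in 5 cells against 1 UMI, a ratio of -5.20 [-10.53 to -2.66], and Ereg had 70 UMIs in 3 cells, 56 of them in 1, against 3 UMIs, a ratio of -3.99 [-6.30 to -2.38]. Over the 68 cells Kcnip4 had -5.07, Sntg1 -4.82 and Ereg -3.61. These sums rest on small numbers of cells, and in each of them most wild-type members held none.

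**Figure D4:**
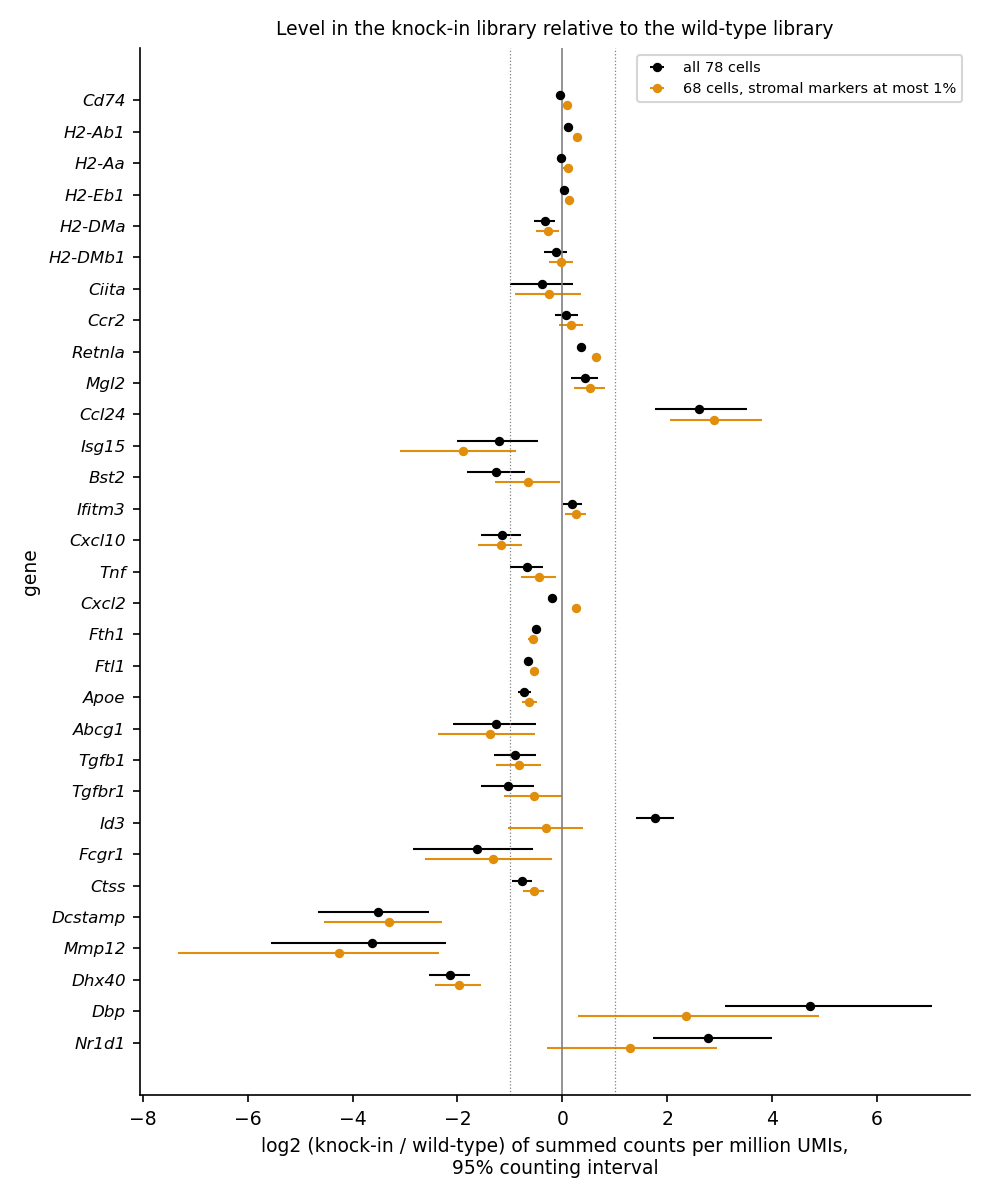
Each row is a gene and the x axis gives log2 of its summed CPM in knock-in over wild-type members. Points are ratios and lines 95% counting intervals, in black for all 78 cells (48 wild-type, 30 knock-in) and in orange for the 68 cells with at most 1% of vessel wall markers. Dotted lines mark 2-fold. The MHC class II genes and Ccr2 lie near 0, Id3 changes side between the 2 sets of cells, and Dhx40, Dcstamp and Mmp12 lie beyond 2-fold in both.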

How the data were processed

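Both deposited 10x Genomics matrices, 1 per genotype, were used. Cell Ranger 7.1.0 is the tool named, per the submitters' processing notes, and the deposited values are raw UMI counts over all barcodes, per the file headers. The genome build and annotation are not given in the sources used here. Nothing in the labels gives the number of mice per library.

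UMI counts were summed per library over the members and expressed per 1000000 UMIs in those cells (CPM). Intervals are at 95%, conditional binomial for log2 ratios and Clopper-Pearson for shares, both exact. They cover counting error only. Folds against 0 UMIs used a floor of 3 counts in that library. List medians used 0.5 added to each sum. Members were clustered with scanpy 1.11.5 and igraph 0.11.9 (1000 variable genes, 15 principal components, 15 neighbours, Leiden resolution 0.5). Doublets were scored per library with scrublet and kept: the highest-scoring 0.8% per 1000 cells, 109 wild-type and 330 knock-in cells, were marked, where the automatic threshold called 4 and 120. Python 3.11.15, numpy 2.4.6, scipy 1.17.1, pandas 2.3.3, anndata 0.12.19 and matplotlib 3.10.9 were used, and the ratio step was tested on simulated counts.

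Between genotypes, named genes had a minimum of 50 UMIs in all, 50 CPM in 1 library and 1/3 of the level in the remaining cells. They were the 12 highest and 12 lowest by the interval bound nearest 0, leaving out unnamed and sex-linked genes and those for immunoglobulin, hemoglobin, ribosomal and mitochondrial products. The same ranking named 12 and 12 genes against the Lyve1 Folr2 high macrophages, 10 by fold were named per group, and from each list 2 to 4 genes of most UMIs or of largest ratio. Ccl6, Ear2, Malt1, Cd226, Hpgd, Gpr183, Apoe in the groups, Ptprc and the genes of single cells were chosen after their values were seen. The members and gene lists were chosen with earlier results of these data known. Some genes that these rules select are not reported here. Promoter windows were read from the RefSeq table given with the data.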

Additional observations from a re-analysis of the deposited data

How the results depend on the processing

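With 1 library per genotype nothing tells a difference between genotypes from one between mice or libraries, and single cells decide many sums at this depth. Of 23 settings, only those that changed the limits for a member or left out doublets gave shares of cells. In those the share of all cells kept its order. The 173 higher genes became 86 with limits as shares of UMIs, 55 without marked doublets, 71 with at most 1% stromal markers, 70 among female and 90 among male cells, 44 within group 1, 13 with members thinned to 2000 UMIs, and 490 and 78 with a minimum of 20 and 100 UMIs. The 162 lower genes became 20 when thinned, 100 among male cells, 454 and 67 with those minimums, and 245 without the top cell of each gene in each library. That last setting kept the full UMI totals, although 1 cell is a larger part of the smaller knock-in set, which lowers ratios by construction. In it 145 of the 162 lower and 149 of the 173 higher genes stayed 2-fold apart. Fewer genes could be tested with fewer cells or UMIs. Against the Lyve1 Folr2 high macrophages, thinning left 48 higher and 209 lower genes. The fibroblast list median turned to -0.65 with limits as shares, -0.80 with at most 1% stromal markers, -2.80 among male cells and -0.67 within group 1, and the classical monocyte list median, -2.30 over all members, to 0.033 when thinned and 0.19 without the 6 cells that stand apart. Among genes at least 2-fold apart, Id3 turned to -0.14 with limits as shares, -0.31 with few stromal markers and -1.65 among male cells, Tnfaip6 to -0.28 with limits as shares, and Sfrp2 to -0.65 with few stromal markers and -0.97 within group 1. Fcgr1 turned to 0.14 and Isg15 to 0.41 when thinned. Among female cells Clec10a turned to 0.36, Bst2 to 0.37 and Cxcr4 to 0.21, and Bst2 had 0.027 and Igf1 -0.12 within group 1. Among cited genes 1.5-fold to 2-fold apart, female cells gave -1.25 for Cxcl1, -0.40 for Ccl12 and 1.51 for Apoe, and Cxcl1 had -0.14 without marked doublets. The causes were not tested. The settings without the top cell and without 6 cells were chosen after seeing the data. No paired analysis was possible because each genotype has 1 library.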

Other observations

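Maf, a transcription factor of macrophage identity, had 122 UMIs in wild-type and 144 in knock-in members, a log2 ratio of 0.80, with 1.20 over the 68 cells. Of 12 myeloid transcription factors 3 were higher and 3 lower. Of 12 glycolysis genes 2 were higher and 0 lower, and Gapdh had a ratio of -0.49. Plaur, the urokinase receptor, had 273 and 99 UMIs and a ratio of -0.91, and its ligand Plau had 58 and 13 UMIs and a ratio of -1.60. Igf1, a growth factor made by resident macrophages, had 78 and 144 UMIs and a ratio of 1.44, with 0.86 over the 68 cells and -0.12 within group 1.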
